A study of Mus musculus with 14 samples.

Results

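The collagen genes of the mouse mammary gland were followed across puberty on 14 Affymetrix expression arrays. A probe set was taken as a collagen when it named 1 gene and the gene's symbol was Col, a number, a and a number. The rule found 58 probe sets for 36 genes among the 22690 probe sets of the table. Of these, 48 probe sets for 32 genes passed a limit on low levels, as did 18513 probe sets for 10689 genes in all, and only these were tested. The arrays held RNA of the whole inguinal gland of untreated female CD1 mice, an outbred strain, at 3, 4, 5, 6 and 7 weeks of age. There were 3 arrays each at 3, 4, 6 and 7 weeks and 2 arrays at 5 weeks. Each array carried a pool of RNA from no fewer than 3 mice, and the lymph nodes of the gland had been removed, per the labels. The labels do not say whether the pools of an age held different mice, so the p-values measure the spread between arrays of pooled RNA. All values are ratios: 1 means that the signal equalled the probe set's median of the 14 arrays. Levels therefore cannot be compared between genes.

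Collagens are helical proteins wound from several chains and are the main structural proteins of the extracellular matrix. Fibrillar collagens (types I, II, III, V and XI) form the fibres of connective tissue, and network collagens include type IV, the sheet of the basement membrane. FACIT collagens (fibril-associated collagens with interrupted helices) sit on the surface of fibrils, type VI forms beaded microfibrils, type VII forms the fibrils that anchor an epithelial basement membrane to the stroma, and type XVII spans the epithelial cell membrane at hemidesmosomes. During puberty the epithelial ducts of the mammary gland grow through its fat pad and are wrapped in basement membrane and fibrous stroma. The glands measured here held all of these compartments, so for any gene fewer cells of a type and less RNA per cell cannot be told apart.

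The classes were represented as follows. The fibrillar class had 17 probe sets for 9 genes (Col1a1, Col1a2, Col2a1, Col3a1, Col5a1, Col5a2, Col5a3, Col11a1 and Col11a2). The network class had 12 probe sets for 8 genes (Col4a1 to Col4a6, Col8a1 and Col10a1), and the microfibrillar class had 4 for 3 genes (Col6a1, Col6a2 and Col6a3). The FACIT class had 17 probe sets for 9 genes (Col9a1, Col9a2, Col9a3, Col12a1, Col14a1, Col16a1, Col19a1, Col20a1 and Col22a1). Col7a1 stood for the anchoring fibril and Col17a1 for the hemidesmosome, with 1 probe set each. The remaining genes were Col13a1 and Col25a1, which are further transmembrane collagens, Col15a1 and Col18a1, which are multiplexins of basement membrane zones, and Col26a1.

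The collagens moved in both directions with age. At 5 weeks the 4 called probe sets were all higher than at 3 weeks, and they were those of Col9a1, Col16a1, Col7a1 and Col18a1. At 6 weeks 7 were called higher than at 3 weeks and 2 lower, and at 7 weeks 4 were called higher and 6 lower, the falls being in Col1a2, Col3a1, Col5a3, Col6a1, Col4a1 and Col4a2. The called falls had log2 changes from -0.84 to -0.44 at 7 weeks, and the called rises had log2 changes from 0.51 to 3.71 at 6 weeks.

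A probe set was called when its adjusted p was under 0.05 in limma's moderated test with Benjamini-Hochberg adjustment over all 18513 tested probe sets. At 5 weeks against 3 weeks 8.33% of the 48 collagen probe sets were called, and 3.62% of all tested probe sets were. At 6 weeks against 3 weeks 18.8% of the collagen probe sets were called, against 13.6% of all, and at 7 weeks against 3 weeks 20.8% were called, against 8.53% of all. The F test over the 5 ages called 8 collagen probe sets (16.7%), against 10.3% of all tested probe sets. By direction, the rises among all probe sets made up 2.39% at 5 weeks, 9.09% at 6 weeks and 5.94% at 7 weeks, and the falls 1.24%, 4.54% and 2.59%. The comparisons with 3 weeks share the 3 arrays of that age.

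No collagen probe set was called by limma at 4 weeks against 3 weeks, where 0.151% of all probe sets were called and 8 collagens had an unadjusted p under 0.05, all higher at 4 weeks (16.7% of the collagens, against 10.3% of all). None was called at 5 weeks against 4 weeks either, where 0.751% of all were called and 12 collagen probe sets had an unadjusted p under 0.05 (6 higher, 6 lower; 25% of the collagens, against 14.9% of all). At 6 weeks against 5 weeks none was called, 0.281% of all were called and 1 collagen probe set had an unadjusted p under 0.05 (2.08% of the collagens, against 10.5% of all). At 7 weeks against 6 weeks none was called, 0.956% of all were called and 8 collagens had an unadjusted p under 0.05, all lower at 7 weeks (16.7% of the collagens, against 14% of all). The lowest adjusted p in that last comparison belonged to Col18a1 (log2 change -0.80 ± 0.18 SE, adjusted p = 0.062). Quantile normalization and a fit without the 6wk arrays A and B each called 1 collagen probe set there, lower at 7 weeks.

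**Figure D1:**
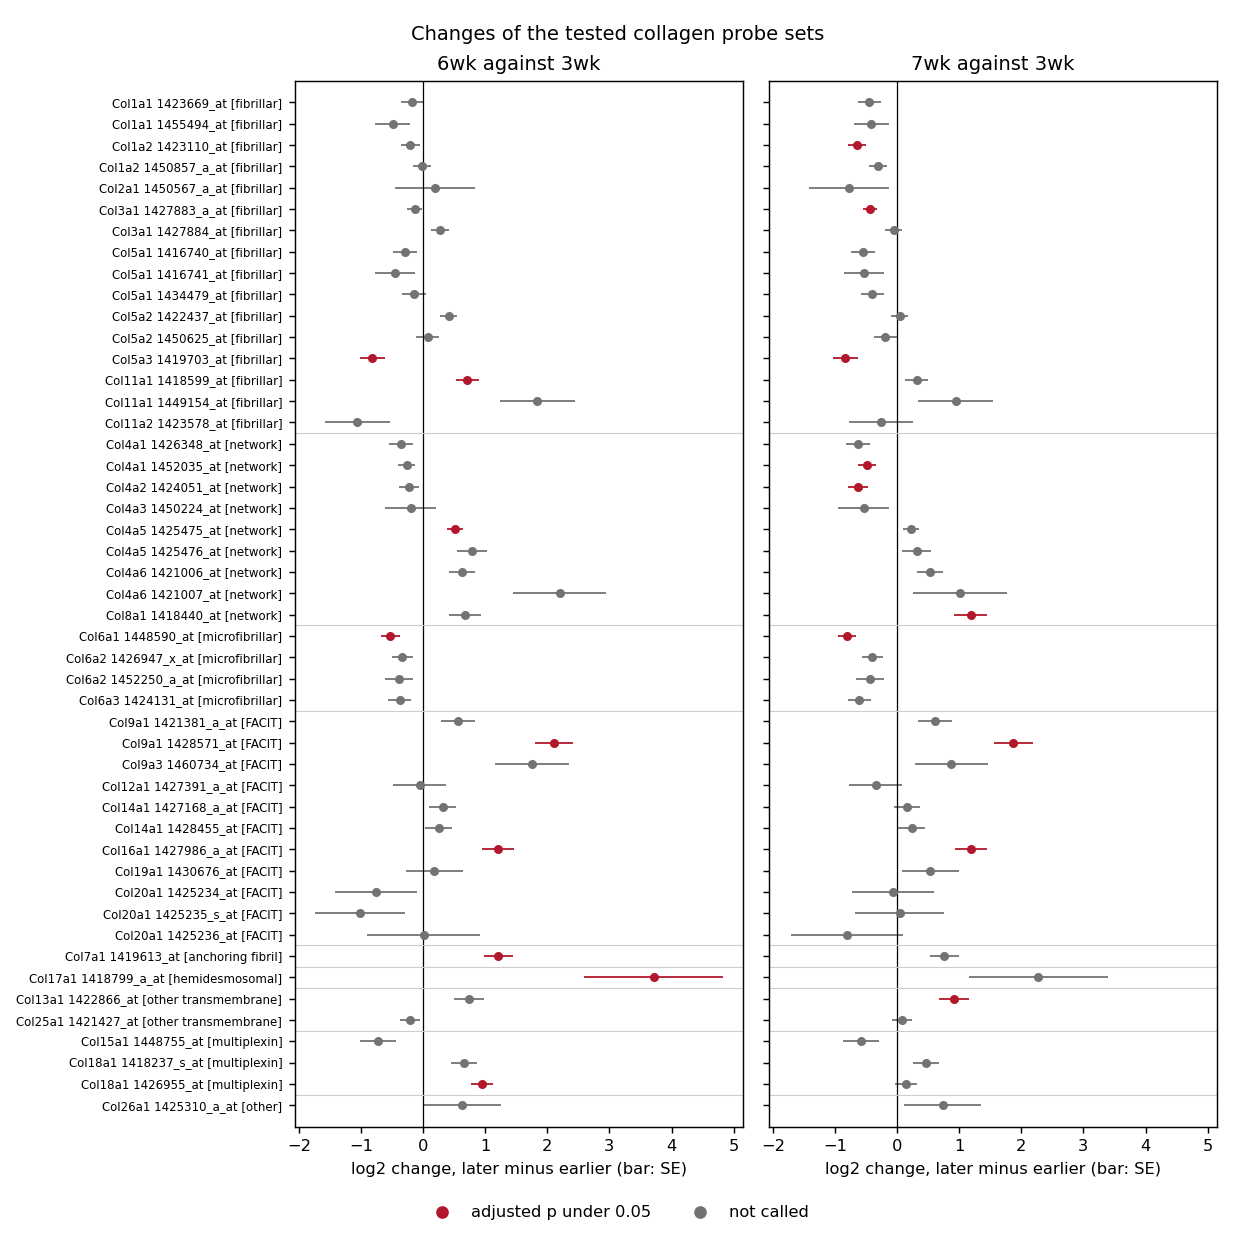
Log2 changes of the 48 tested collagen probe sets at 6 weeks against 3 weeks (left) and at 7 weeks against 3 weeks (right), 1 row per probe set grouped by class, with bars of 1 standard error and called probe sets in red. The 7 rises and 2 falls called at 6 weeks and the 4 rises and 6 falls called at 7 weeks are in red, and the bar of Col17a1 is the widest of the called ones.

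Taken by class, 8 of the 9 tested fibrillar genes lay below their level at 3 weeks by 7 weeks. Of all 10689 tested genes, 6391 lay above that level and 4298 below it. With each gene as the mean of its probe sets, the median log2 change at 7 weeks against 3 weeks was -0.44 over the 9 tested fibrillar genes, 8 of which were below 0. It was -0.61 over the 3 microfibrillar genes, all below 0, and -0.14 over the 6 tested network genes, of which 3 were below 0. Over the 7 tested FACIT genes, of which 2 were below 0, it was 0.53. This FACIT median is the value of Col19a1, whose tested probe set reached the level limit on no array at 3 or 4 weeks. That probe set was tested only through later arrays, so no rise is read from the FACIT median or from the count of FACIT genes. The median log2 change was 0.09 over all 10689 tested genes and -0.17 over the 32 collagen genes. Of these classes, 2 fibrillar genes, 1 microfibrillar gene and 2 network genes passed the test as lower, and 1 network gene and 2 FACIT genes as higher, beside 2.98% of all genes lower and 7.1% higher. The differences between classes were not tested.

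At 6 weeks against 3 weeks the class medians were -0.12 for fibrillar, -0.38 for microfibrillar, 0.23 for network and 0.28 for FACIT genes. The median over all genes was 0.07. Col4a5 in the network class and Col9a1 and Col16a1 in the FACIT class passed the test as higher, and Col5a3 and Col6a1 as lower, when genes were tested. Of all genes, 9.8% were called higher and 4.28% lower in that comparison. The gene means of Col11a1 and Col4a6 passed as well. Each of them holds a probe set that reached the level limit only at 6 weeks (Col11a1) or at 5 and 6 weeks (Col4a6), so no rise is read from these means. At 5 weeks the medians were -0.01, -0.47, 0.13 and 0.42 for the fibrillar, microfibrillar, network and FACIT genes, against 0.04 over all genes. The FACIT median at 5 weeks is again the value of Col19a1, so no rise is read from it.

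Single arrays differed within an age. The median log2 ratio of the fibrillar genes was -0.23 on array 3wk A, against 0.24 and 0.09 on 3wk B and C, and it was -0.29 on 6wk B, against -0.06 and 0.17 on 6wk A and C. On the 7wk arrays it was -0.35, -0.14 and -0.25. The FACIT median was 0.09, 0.09 and 0.13 on the 7wk arrays, against -0.61, -0.56 and -0.32 on the 3wk arrays. On 3wk A and 3wk C the FACIT median is the value of Col19a1, which was tested only because later arrays reached the level limit. No rise is therefore read from the FACIT medians. The fibrillar median of 3wk A lay within the range of the 7wk arrays.

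**Figure D2:**
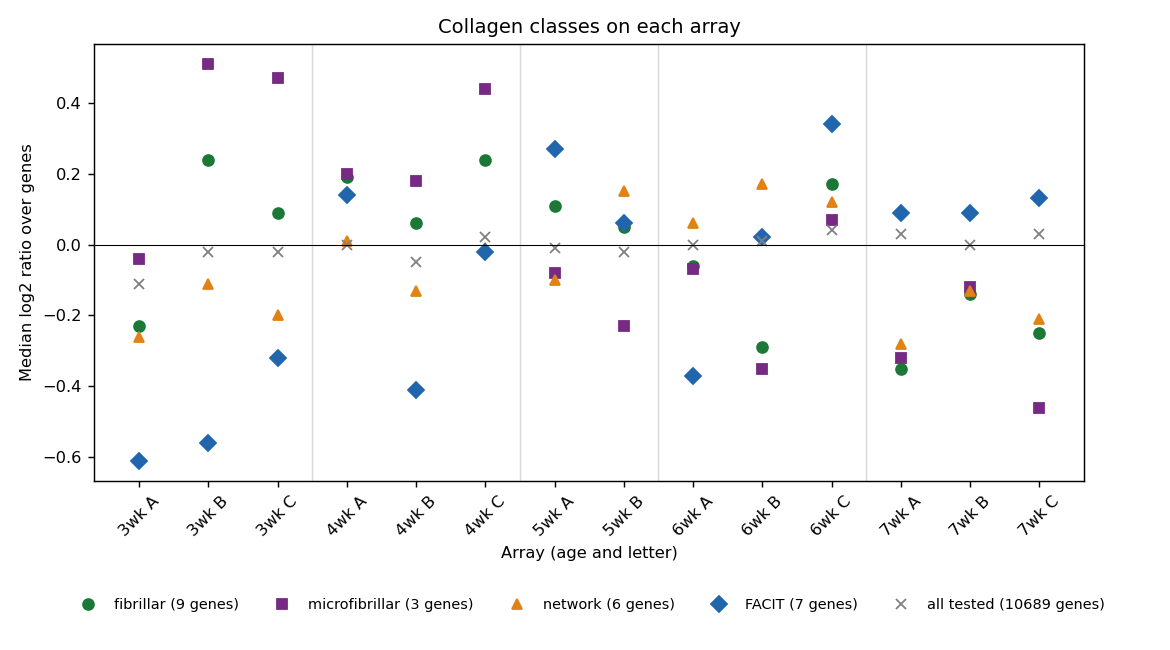
Median log2 ratio over the tested genes of 4 collagen classes and over all tested genes (crosses) on each of the 14 arrays, ordered by age. The microfibrillar genes reach 0.51 on 3wk B and -0.46 on 7wk C, the FACIT genes run from -0.61 on 3wk A to 0.34 on 6wk C, and all tested genes stay between -0.11 and 0.04.

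Among the FACIT genes, Col9a1 and Col16a1 were higher than at 3 weeks at 5, 6 and 7 weeks. Col9a1 encodes a chain of type IX collagen, known best from the surface of cartilage fibrils. Its probe set 1428571_at had ratios of 0.17, 0.445 and 0.363 at 3 weeks, 0.782, 0.562 and 0.924 at 4 weeks, 1.22 and 1.5 at 5 weeks, 1.23, 1.38 and 1.29 at 6 weeks and 1.36, 1.04 and 0.959 at 7 weeks. All 3 arrays at 3 weeks were below every later array. Against 3 weeks the change passed the test at 5 weeks (log2 change 2.17 ± 0.35 SE, adjusted p = 0.00736), at 6 weeks (log2 change 2.11 ± 0.31 SE, adjusted p = 0.00182) and at 7 weeks (log2 change 1.87 ± 0.31 SE, adjusted p = 0.00447). The 4 week arrays also lay above those of 3 weeks, but that change did not pass (log2 change 1.30 ± 0.31 SE, adjusted p = 0.164). The other probe set of the gene, 1421381_a_at, had log2 changes of 0.62, 0.56 and 0.61 at 5, 6 and 7 weeks and passed in none of them (lowest adjusted p 0.199), so the gene's probe sets disagreed in size. The call at 5 weeks was lost without 5wk B (adjusted p = 0.0729, lowest log2 change of the 14 fits 1.75), and the calls at 6 and 7 weeks held in all 14 fits that left out 1 array.

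Col16a1, which encodes a FACIT collagen of many connective tissues, had ratios of 0.434, 0.605 and 0.615 at 3 weeks, 0.844, 0.688 and 0.992 at 4 weeks, 1.43 and 1.47 at 5 weeks, 1.01, 0.982 and 1.98 at 6 weeks and 1.31, 1.33 and 1.1 at 7 weeks. Every later array exceeded the 3 arrays at 3 weeks, and array 6wk C stood well above the other arrays of its age. The mean was 1.45 ± 0.0269 at 5 weeks (SD, n = 2), against 0.551 ± 0.102 at 3 weeks (SD, n = 3). The change passed the test at 5 weeks (log2 change 1.41 ± 0.29 SE, adjusted p = 0.0232), at 6 weeks (log2 change 1.20 ± 0.26 SE, adjusted p = 0.0123) and at 7 weeks (log2 change 1.19 ± 0.26 SE, adjusted p = 0.0175). The call at 6 weeks held in all 14 fits that left out 1 array, that at 5 weeks was lost without 3wk A, 5wk A and 5wk B (log2 changes 1.25 to 1.5 over the 14 fits, highest adjusted p 0.136), and that at 7 weeks was lost without 3wk A, 7wk A and 7wk B (log2 changes 1.02 to 1.27 over the 14 fits, highest adjusted p 0.0607). Another type IX chain, Col9a3, rested on 1 array: its probe set 1460734_at had a ratio of 5.8 on 6wk C and between 0.441 and 1.87 on all other arrays, and it passed in no comparison.

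Col7a1, the single chain of the anchoring fibril, had ratios of 0.415, 0.718 and 0.697 at 3 weeks, 0.696, 0.966 and 0.991 at 4 weeks, 1.48 and 1.47 at 5 weeks, 1.23, 1.54 and 1.36 at 6 weeks and 1.01, 0.816 and 1.23 at 7 weeks. The values at 5 and 6 weeks were all above those at 3 weeks and above those at 4 weeks. The rise passed at 5 weeks (log2 change 1.32 ± 0.26 SE, adjusted p = 0.0196) and at 6 weeks (log2 change 1.21 ± 0.23 SE, adjusted p = 0.00708), but not at 7 weeks (log2 change 0.76 ± 0.23 SE, adjusted p = 0.069). The 7 week values overlapped those at 4 weeks, and 7 weeks against 6 weeks did not pass (log2 change -0.45 ± 0.23 SE, adjusted p = 0.417). The call at 6 weeks held in all 14 fits that left out 1 array, and the call at 5 weeks was lost without 5wk A and 5wk B (log2 changes 1.06 to 1.45 over the 14 fits, highest adjusted p 0.116).

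Col17a1, the transmembrane collagen of hemidesmosomes, had ratios of 0.274, 0.241 and 0.0218 at 3 weeks, 1.09, 0.0919 and 1.06 at 4 weeks, 0.937 and 1.34 at 5 weeks, 1.22, 1.44 and 1.84 at 6 weeks and 1.37, 0.576 and 0.205 at 7 weeks. The 6 week arrays were all above those at 3 weeks, while the 4 week arrays spanned 0.0919 to 1.09 and the 7 week arrays 0.205 to 1.37. The change at 6 weeks was the largest among the called collagens and just passed (log2 change 3.71 ± 1.12 SE, adjusted p = 0.0486), and those at 5 weeks (log2 change 3.31 ± 1.25 SE, adjusted p = 0.185) and 7 weeks (log2 change 2.27 ± 1.12 SE, adjusted p = 0.256) did not. The call was lost without every one of the 14 but 4wk B (log2 changes 2.52 to 4.35 over the 14 fits, highest adjusted p 0.145). The log2 change was 2.52 without 3wk C, whose ratio was 0.0218.

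Col18a1 encodes type XVIII collagen of basement membranes, whose end fragment is endostatin. Its probe set 1426955_at had ratios of 0.646, 0.772 and 0.837 at 3 weeks, 1.13, 0.97 and 1.03 at 4 weeks, 1.36 and 1.59 at 5 weeks, 1.59, 1.27 and 1.48 at 6 weeks and 0.64, 0.949 and 0.929 at 7 weeks. The 5 and 6 week arrays were above all others, and the 7 week arrays were all below those at 4 weeks and overlapped those at 3 weeks. The rise passed at 5 weeks (log2 change 0.98 ± 0.20 SE, adjusted p = 0.0203) and 6 weeks (log2 change 0.95 ± 0.18 SE, adjusted p = 0.00586), and the change at 7 weeks was 0.14 ± 0.18 SE (log2, adjusted p = 0.685). The other probe set, 1418237_s_at, whose suffix marks probes that may bind several transcripts, had ratios of 0.516, 0.907 and 0.726 at 3 weeks, 1.13, 0.744 and 1.02 at 4 weeks, 1.11 and 1.18 at 5 weeks, 0.951, 1.2 and 1.16 at 6 weeks and 0.89, 0.987 and 1.01 at 7 weeks. It was higher than at 3 weeks by log2 changes of 0.72 and 0.65 at 5 and 6 weeks, which did not pass (adjusted p = 0.131 and 0.0635). The call of 1426955_at at 6 weeks held in all 14 fits that left out 1 array, and that at 5 weeks was lost without 3wk A, 5wk A and 5wk B (log2 changes 0.87 to 1.09 over the 14 fits, highest adjusted p 0.154).

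Further rises came from Col8a1, Col13a1 and Col11a1, and that of Col4a5 is given with the type IV chains. Col8a1, a short-chain network collagen of vessel walls and the eye's basement membranes, had ratios of 0.623, 0.651 and 0.599 at 3 weeks, 0.968, 0.919 and 0.936 at 4 weeks, 1.03 and 1.15 at 5 weeks, 0.73, 1.19 and 1.12 at 6 weeks and 2.24, 1.04 and 1.21 at 7 weeks on its tested probe set 1418440_at. Every later array was above the 3 week arrays, and 7wk A was far above the rest. The rise passed at 7 weeks (log2 change 1.18 ± 0.26 SE, adjusted p = 0.0179), and it was lost without 3wk C (adjusted p = 0.051, with log2 changes of 0.84 to 1.40 over the 14 fits). On the gene's second probe set, which fell below the level limit, 7wk A was at 8.46 and the other 13 arrays were between 0.482 and 1.56.

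Col13a1, a transmembrane collagen of cell adhesion sites, had ratios of 0.783, 0.439 and 0.705 at 3 weeks, 1.01, 0.6 and 0.945 at 4 weeks, 0.949 and 1.08 at 5 weeks, 1.02, 0.994 and 1.13 at 6 weeks and 1.05, 1.14 and 1.37 at 7 weeks. It rose at 7 weeks against 3 weeks (log2 change 0.92 ± 0.24 SE, adjusted p = 0.0384), with no overlap between these ages. Col11a1, a minor fibrillar chain that assembles with types II and V, had ratios of 0.755, 1.06 and 0.679 at 3 weeks, 0.973, 0.895 and 0.761 at 4 weeks, 1.33 and 0.979 at 5 weeks, 1.31, 1.24 and 1.45 at 6 weeks and 1.02, 0.961 and 1.05 at 7 weeks on 1418599_at and rose at 6 weeks (log2 change 0.71 ± 0.18 SE, adjusted p = 0.0259). All 3 arrays at 6 weeks were above those at 3 weeks. Its other probe set, 1449154_at, reached the level limit only on 6wk A and C, so it was tested only because it was high there, and its change is not used. The call of Col13a1 was lost without 3wk B, 3wk C, 5wk A, 5wk B, 6wk A, 6wk B, 7wk A, 7wk B and 7wk C (log2 changes 0.66 to 1.08 over the 14 fits, highest adjusted p 0.126), and that of Col11a1 was lost without 3wk A, 3wk C, 6wk A and 6wk C (log2 changes 0.58 to 0.90 over the 14 fits, highest adjusted p 0.0874).

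**Figure D3:**
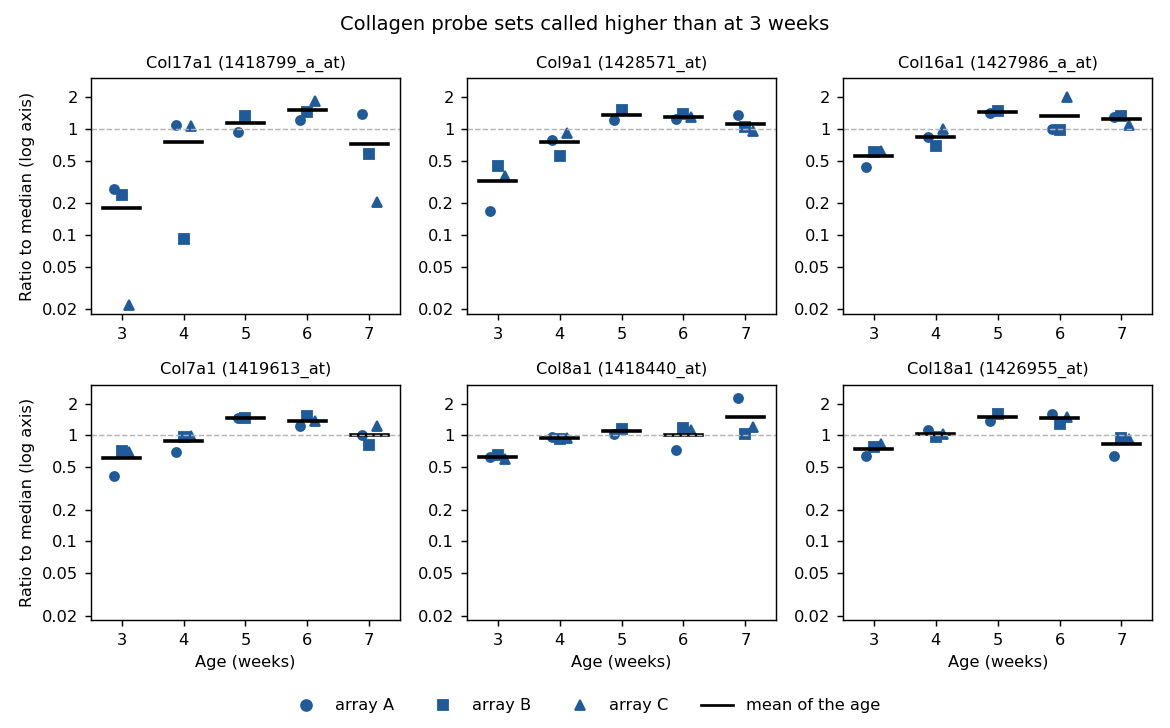
Ratios to the median on each array by age (points, with the mean of each age as a bar, log axis) for the 6 collagen probe sets with the largest called rises over 3 weeks. Col9a1 climbs to means of 1.36 at 5 weeks and 1.3 at 6 weeks, Col17a1 is spread from 0.0919 to 1.09 at 4 weeks, and Col18a1 has a mean of 0.839 at 7 weeks.

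Markers of the epithelium were higher than at 3 weeks as well. At 7 weeks against 3 weeks Col7a1, Col17a1 and Col18a1 (1426955_at) had log2 changes of 0.76, 2.27 and 0.14, which were not called. Of 12 luminal and pan-epithelial marker genes, 10 rose at 5 weeks, 12 at 6 weeks and 12 at 7 weeks against 3 weeks, with a median log2 change of 2.57 at 6 weeks. Of all tested genes, 3.01% rose at 5 weeks, 9.8% at 6 weeks and 7.1% at 7 weeks. All 12 passed the level limit, but Ehf, counted as a rise at 5, 6 and 7 weeks, has 1 of 3 probe sets below it on all 3 week arrays. That probe set was tested only through arrays at 6 and 7 weeks, so no rise is read from the mean of Ehf. The median log2 ratio of the 12 genes per array ran from -2.20 to -1.49 at 3 weeks. It ran from 0.26 to 0.91 at 6 weeks and from 0.25 to 0.51 at 7 weeks. Of 9 basal and myoepithelial marker genes, 3 rose at 5 weeks, 6 at 6 weeks and 4 at 7 weeks. Their medians per array were -0.77 to -0.65 at 3 weeks, 0.23 to 0.75 at 6 weeks and -0.07 to 0.28 at 7 weeks. Among these basal genes, Trp63 has 1 of 3 probe sets below the level limit on all 3 week arrays, and it was not among the rises. Of 9 fibroblast markers, 1 rose at 5 weeks, 2 rose at 6 weeks and 0 were called by limma at 7 weeks, where 3 had an unadjusted p under 0.05. The part of these markers in the collagen rises was not tested.

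Of the 6 week arrays, A and B stood apart in the actin control. The difference between the 5' and 3' ends of the actin control, as a log2 ratio of ratios to the median, averaged -0.44 ± 0.35 at 6 weeks and -0.21 ± 0.07 at 5 weeks, against 0.07 ± 0.12 at 3 weeks (SD, n = 3, 2 and 3). It was -0.457 on 6wk A and -0.792 on 6wk B, the lowest of the 14 arrays, while 6wk C, at -0.0848, lay above both 5 week arrays and close to 3wk C. With this ratio as a covariate 1 collagen probe set, that of Col16a1, stayed called at 6 weeks, and 2, those of Col9a1 and Col16a1, at 5 weeks. The 6 week log2 changes in that fit were 1.81 for Col9a1, 0.86 for Col7a1, 0.95 for Col18a1, -0.50 for Col5a3 and -0.35 for Col6a1, against 2.11, 1.21, 0.95, -0.82 and -0.53 without the covariate. No called change reversed its sign. Array 3wk A, the lowest at 3 weeks for Col9a1, Col16a1, Col7a1 and Col18a1, had a median log2 ratio of 1.98 over 6 skeletal muscle markers, against -1.32 to 0.46 on the other 13 arrays. Without it, Col9a1, Col7a1, Col18a1 and Col16a1 were still called at 6 weeks. The calls of Col16a1 at 5 and 7 weeks and of Col18a1 at 5 weeks were lost without 3wk A. So were those of Col11a1, Col4a5 and Col17a1 at 6 weeks.

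The promoters of the 4 collagens called at 5 weeks, and of 2 that were called lower at 7 weeks, are shown to set the letters of genes that moved in opposite directions side by side. They were chosen after these results were known. The sequences are the 250 bases before each annotated start in RefSeq, on GRCm38.p6, written 5′ to 3′ on the gene's strand. Capitals mark GGGCGG (GC box), CCAAT and TATAAA in either orientation. Which of the starts of Col9a1 and Col18a1 the probe sets report was not analysed here.
Col7a1, chr9:108953336-108953585, plus strand: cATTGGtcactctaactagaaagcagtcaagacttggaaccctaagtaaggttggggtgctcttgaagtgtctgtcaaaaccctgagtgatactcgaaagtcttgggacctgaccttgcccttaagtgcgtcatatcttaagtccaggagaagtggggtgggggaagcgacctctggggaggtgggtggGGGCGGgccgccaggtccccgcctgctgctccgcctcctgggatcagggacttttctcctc
Col9a1 start 1, chr1:24177360-24177609, plus strand: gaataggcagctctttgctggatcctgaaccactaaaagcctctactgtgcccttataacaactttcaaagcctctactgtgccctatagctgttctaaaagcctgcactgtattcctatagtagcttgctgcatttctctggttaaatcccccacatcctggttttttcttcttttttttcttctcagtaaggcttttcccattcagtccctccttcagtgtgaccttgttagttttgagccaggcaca
Col9a1 start 2, chr1:24194953-24195202, plus strand: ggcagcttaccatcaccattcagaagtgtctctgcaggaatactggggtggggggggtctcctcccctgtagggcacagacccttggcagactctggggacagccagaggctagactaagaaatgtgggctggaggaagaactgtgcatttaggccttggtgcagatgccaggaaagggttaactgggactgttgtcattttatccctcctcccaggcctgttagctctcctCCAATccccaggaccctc
Col16a1, chr4:130047590-130047839, plus strand: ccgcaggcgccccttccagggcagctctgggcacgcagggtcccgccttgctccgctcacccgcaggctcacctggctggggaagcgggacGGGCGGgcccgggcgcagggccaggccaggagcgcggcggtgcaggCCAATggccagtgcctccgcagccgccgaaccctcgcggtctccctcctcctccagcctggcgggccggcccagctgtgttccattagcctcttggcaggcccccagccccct
Col18a1 start 1, chr10:77166531-77166780, minus strand: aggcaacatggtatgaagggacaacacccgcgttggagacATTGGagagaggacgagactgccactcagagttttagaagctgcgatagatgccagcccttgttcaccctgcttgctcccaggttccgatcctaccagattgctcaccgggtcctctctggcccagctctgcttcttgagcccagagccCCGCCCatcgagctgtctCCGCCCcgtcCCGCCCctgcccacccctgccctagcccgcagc
Col18a1 start 2, chr10:77113706-77113955, minus strand: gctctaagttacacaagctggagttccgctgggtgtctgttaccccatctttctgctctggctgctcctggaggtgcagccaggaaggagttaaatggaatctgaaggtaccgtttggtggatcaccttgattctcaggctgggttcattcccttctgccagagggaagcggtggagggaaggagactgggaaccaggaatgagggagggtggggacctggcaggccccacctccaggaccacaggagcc
Col1a2, chr6:4505368-4505617, plus strand: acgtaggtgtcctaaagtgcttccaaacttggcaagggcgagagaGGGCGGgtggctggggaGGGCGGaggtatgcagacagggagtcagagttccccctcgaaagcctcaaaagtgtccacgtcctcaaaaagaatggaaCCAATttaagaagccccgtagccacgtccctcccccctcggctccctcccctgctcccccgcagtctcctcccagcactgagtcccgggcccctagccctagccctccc
Col6a1, chr10:76726045-76726294, minus strand: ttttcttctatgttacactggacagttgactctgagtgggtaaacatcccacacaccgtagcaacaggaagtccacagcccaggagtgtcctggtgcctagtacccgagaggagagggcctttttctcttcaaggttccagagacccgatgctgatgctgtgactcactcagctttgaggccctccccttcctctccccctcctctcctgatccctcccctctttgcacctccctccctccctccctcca

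Col18a1 start 1 held 3 GC boxes and 1 CCAAT box, Col1a2 held 2 GC boxes and 1 CCAAT box, and Col7a1 and Col16a1 each held 1 of both. Col9a1 start 1, Col18a1 start 2 and Col6a1 held 0 matches, and Col9a1 start 2 held 1 CCAAT box. None of the 8 windows held TATAAA. Such windows were found for 27 of the 36 collagen genes, 30 windows in all. Of these, 53.3% held a GC box, 40% a CCAAT box and 16.7% a TATA box, against 32.7%, 33.8% and 12.4% of the 32851 windows of all genes. No motif is contained in another. A match is a description of the letters only.

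At 7 weeks several of the principal stromal chains were lower than at 3 weeks. Col1a2 encodes the second chain of type I collagen, the main fibre protein of connective tissue. Its probe set 1423110_at had ratios of 0.942, 1.12 and 1.1 at 3 weeks, 1.16, 1.06 and 1.18 at 4 weeks, 0.939 and 0.988 at 5 weeks, 1.03, 0.723 and 1.01 at 6 weeks and 0.625, 0.684 and 0.706 at 7 weeks. All 3 arrays at 7 weeks were below all of the other 11. The mean was 0.672 ± 0.0419 at 7 weeks, against 1.05 ± 0.0986 at 3 weeks (SD, n = 3 each), and the fall passed (log2 change -0.65 ± 0.15 SE, adjusted p = 0.0217). The gene's other probe set, 1450857_a_at, had ratios of 0.776, 1.12 and 1.04 at 3 weeks, 1.05, 0.983 and 1.18 at 4 weeks, 1.02 and 1.06 at 5 weeks, 0.892, 0.928 and 1.05 at 6 weeks and 0.762, 0.803 and 0.768 at 7 weeks and did not pass (log2 change -0.31 ± 0.15 SE, adjusted p = 0.234). The 7 week arrays were the lowest of it as well, apart from 3wk A, which lay among them.

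Col3a1, the chain of type III collagen, which mixes with type I in distensible tissues, had ratios of 1.03, 1.16 and 1.01 at 3 weeks, 1.16, 1.15 and 1.1 at 4 weeks, 0.879 and 0.991 at 5 weeks, 0.911, 0.927 and 1.07 at 6 weeks and 0.71, 0.821 and 0.823 at 7 weeks on 1427883_a_at. The 3 arrays at 7 weeks were again the lowest of the 14, and the fall passed (log2 change -0.44 ± 0.12 SE, adjusted p = 0.0449). Its other probe set, 1427884_at, had ratios of 0.802, 1.0 and 1.03 at 3 weeks, 1.12, 1.01 and 1.17 at 4 weeks, 0.936 and 0.956 at 5 weeks, 1.11, 0.996 and 1.32 at 6 weeks and 0.95, 0.912 and 0.835 at 7 weeks, and its 7 week change was close to 0 (log2 change -0.06 ± 0.14 SE, adjusted p = 0.836). The probe sets of this gene thus disagreed, and the mean over both did not pass. The call of Col1a2 was lost without 3wk B, 3wk C, 7wk A, 7wk B and 7wk C (log2 changes -0.73 to -0.60 over the 14 fits, highest adjusted p 0.0791). That of Col3a1 was lost without every one of the 14 but 6wk C (log2 changes -0.48 to -0.37 over the 14 fits, highest adjusted p 0.15).

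Col5a3, a chain of type V collagen, which regulates the start and width of fibrils, had ratios of 1.16, 1.72 and 1.7 at 3 weeks, 1.47, 1.34 and 1.47 at 4 weeks, 0.87 and 0.87 at 5 weeks, 0.962, 0.622 and 1.04 at 6 weeks and 0.782, 0.905 and 0.843 at 7 weeks on 1419703_at. All arrays from 5 weeks on were below all arrays at 3 and 4 weeks. Its falls passed at 6 weeks (log2 change -0.82 ± 0.20 SE, adjusted p = 0.0224) and at 7 weeks (log2 change -0.84 ± 0.20 SE, adjusted p = 0.0269), while that at 5 weeks was of like size and did not pass (log2 change -0.79 ± 0.23 SE, adjusted p = 0.0855). Col6a1, a chain of the beaded microfibrils of type VI, which is rich around fat cells, had ratios of 1.13, 1.44 and 1.44 at 3 weeks, 1.15, 1.13 and 1.35 at 4 weeks, 0.909 and 0.811 at 5 weeks, 0.953, 0.784 and 1.05 at 6 weeks and 0.803, 0.795 and 0.686 at 7 weeks. Its 3 and 4 week arrays were all above the later ones. The fall passed at 6 weeks (log2 change -0.53 ± 0.15 SE, adjusted p = 0.0433) and at 7 weeks (log2 change -0.81 ± 0.15 SE, adjusted p = 0.00881). The calls of Col5a3 were lost without 3wk B, 3wk C and 6wk B (log2 changes -1.01 to -0.59 over the 14 fits, highest adjusted p 0.0737) at 6 weeks and without 3wk B, 3wk C, 7wk A, 7wk B and 7wk C (log2 changes -1.03 to -0.74 over the 14 fits, highest adjusted p 0.0906) at 7 weeks. The call of Col6a1 at 7 weeks held in all 14 fits that left out 1 array, and that at 6 weeks was lost in 11 of them, without 3wk B or C, 4wk A or B or any of the 5wk and 7wk arrays, or 6wk A or B (log2 changes -0.64 to -0.41, highest adjusted p 0.136).

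The partner chains of type VI leaned the same way without passing. Col6a2 had log2 changes of -0.40 and -0.44 on its 2 probe sets at 7 weeks (adjusted p = 0.181 and 0.267), and Col6a3 had -0.61 (adjusted p = 0.0683).

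**Figure D4:**
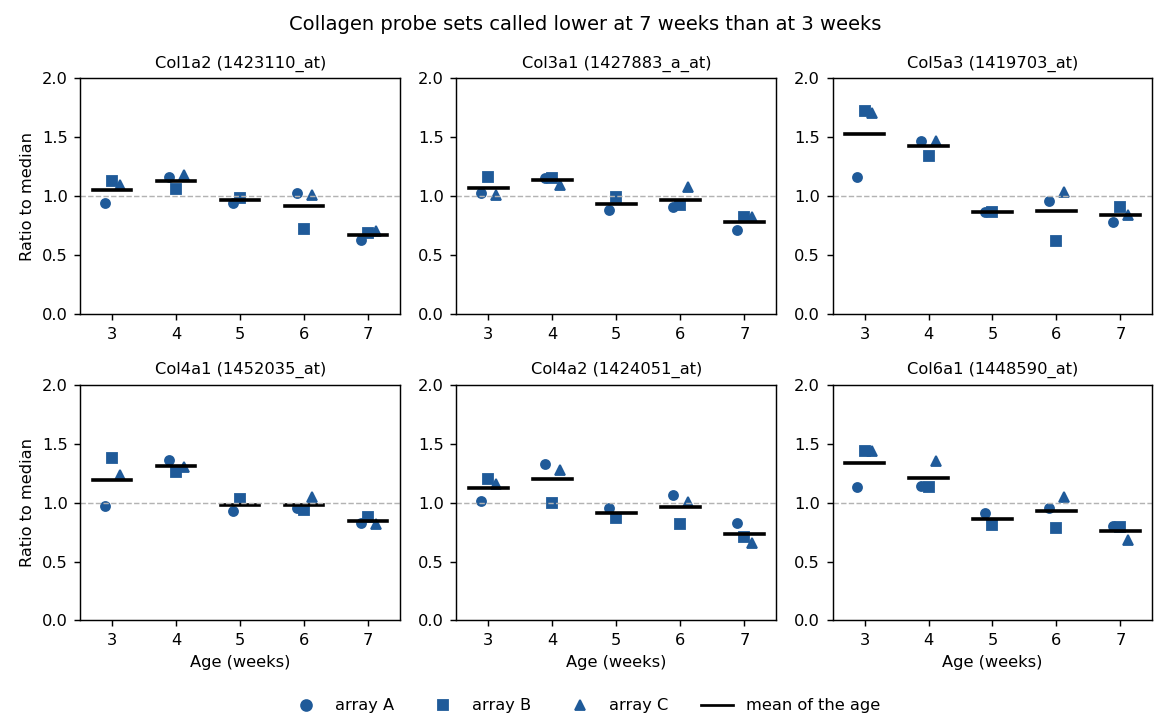
Ratios to the median on each array by age (points, with the mean of each age as a bar, linear axis from 0) for the 6 collagen probe sets called lower at 7 weeks than at 3 weeks. The 7 week arrays lie between 0.625 (Col1a2) and 0.905 (Col5a3), and in Col5a3 and Col6a1 the step down lies between 4 and 5 weeks.

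The 7 week arrays stood apart in the hybridisation controls as well. The mean log2 ratio of 18 control spike probe sets was -1.21 ± 0.58 at 7 weeks, against 0.15 ± 0.40 at 3 weeks (SD, n = 3 each), and the 3 arrays of 7 weeks had the lowest values of the 14. With the spike mean as a covariate, 1 collagen probe set, that of Col9a1, stayed called at 7 weeks, and none of the 6 falls did (their adjusted p ran from 0.12 to 0.453 and their log2 changes from -0.81 to -0.31). Over all probe sets 352 were called in that fit, against 1579 without the covariate. The spikes and the age of 7 weeks can be told apart only in part, since no array of another age reached their values.

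Among the markers, brown adipocyte genes were also lower. Of 7 such genes, 3 fell at 5 weeks, 5 at 6 weeks and 5 at 7 weeks. Of 7 tested white adipocyte markers 1 fell at 6 weeks and 3 at 7 weeks. Of all tested genes, 1.62% fell at 5 weeks, 4.28% at 6 weeks and 2.98% at 7 weeks. The median log2 ratio of the brown adipocyte list ran from -0.52 to -0.10 at 7 weeks, against 1.03 to 1.63 at 3 weeks, and that of the adipocyte list from -0.30 to -0.16 at 7 weeks, against 0.06 to 0.25 at 3 weeks. Of the 9 fibroblast markers, 7 lay above 0 at 7 weeks against 3 weeks, with a median log2 change of 0.33. Limma called 0 of them there, and 3 had an unadjusted p under 0.05. Of all 10689 tested genes 6391 lay above 0, with a median log2 change of 0.09. The median log2 ratio of the fibroblast list per array ran from -0.02 to 0.09 at 7 weeks, against -0.28 to -0.13 at 3 weeks. The part of these cells in the collagen falls was not tested.

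The type IV chains of the basement membrane were taken in pairs. Col4a1 and Col4a2, which are neighbours in the genome and form the sheet found under most epithelia and vessels, were lowest at 7 weeks. Col4a1 had ratios of 1.16, 1.4 and 0.971 at 3 weeks, 1.55, 1.49 and 1.32 at 4 weeks, 0.896 and 0.835 at 5 weeks, 1.03, 0.69 and 1.06 at 6 weeks and 0.809, 0.76 and 0.688 at 7 weeks on 1426348_at. The 4 week arrays were high, and no 7 week array reached any value at 3 or 4 weeks. This probe set passed the F test over the 5 ages (adjusted p = 0.0326), but not 7 weeks against 3 weeks (log2 change -0.63 ± 0.19 SE, adjusted p = 0.059).

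The other probe set of Col4a1, 1452035_at, had ratios of 0.971, 1.38 and 1.23 at 3 weeks, 1.36, 1.26 and 1.31 at 4 weeks, 0.927 and 1.03 at 5 weeks, 0.958, 0.938 and 1.05 at 6 weeks and 0.831, 0.875 and 0.821 at 7 weeks and passed at 7 weeks (log2 change -0.49 ± 0.14 SE, adjusted p = 0.0483). Col4a2 had ratios of 1.02, 1.2 and 1.16 at 3 weeks, 1.33, 0.993 and 1.28 at 4 weeks, 0.954 and 0.866 at 5 weeks, 1.06, 0.82 and 1.01 at 6 weeks and 0.828, 0.71 and 0.654 at 7 weeks and passed too (log2 change -0.63 ± 0.16 SE, adjusted p = 0.0322). On both probe sets the 3 arrays at 7 weeks lay below all arrays at 3 and 4 weeks. The call of Col4a1 was lost without every one of the 14 but 3wk A (log2 changes -0.63 to -0.38 over the 14 fits, highest adjusted p 0.151), and that of Col4a2 was lost without 3wk B, 3wk C, 7wk B and 7wk C (log2 changes -0.72 to -0.55 over the 14 fits, highest adjusted p 0.114).

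Col4a5 and Col4a6, likewise neighbours, were highest at 6 weeks on 3 of their 4 probe sets. Col4a5 1425475_at had ratios of 0.787, 0.861 and 0.776 at 3 weeks, 1.09, 0.991 and 1.07 at 4 weeks, 0.94 and 1.1 at 5 weeks, 1.19, 1.03 and 1.25 at 6 weeks and 0.857, 0.962 and 1.01 at 7 weeks and rose at 6 weeks (log2 change 0.51 ± 0.13 SE, adjusted p = 0.0207). Its 3 week arrays were the lowest, apart from 7wk A, which lay among them. The other probe set, 1425476_at, had a log2 change of 0.78 at 6 weeks with an adjusted p of 0.0514. Col4a6 had log2 changes of 0.63 on 1421006_at and 2.20 on 1421007_at (adjusted p = 0.0662 and 0.0759), and neither passed. The level of 1421007_at reached the limit only at 5 and 6 weeks, so it was tested only because it was high there. The call of Col4a5 was lost without 3wk A, 3wk C, 6wk A and 6wk C (log2 changes 0.45 to 0.60 over the 14 fits, highest adjusted p 0.0685).

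Col4a3, a chain known from the kidney's filter, had its lowest mean at 4 weeks and its highest at 3 weeks (means 0.811 and 1.11) and passed in no comparison. Whether the pairs differed in their course over age was not tested.

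**Figure D5:**
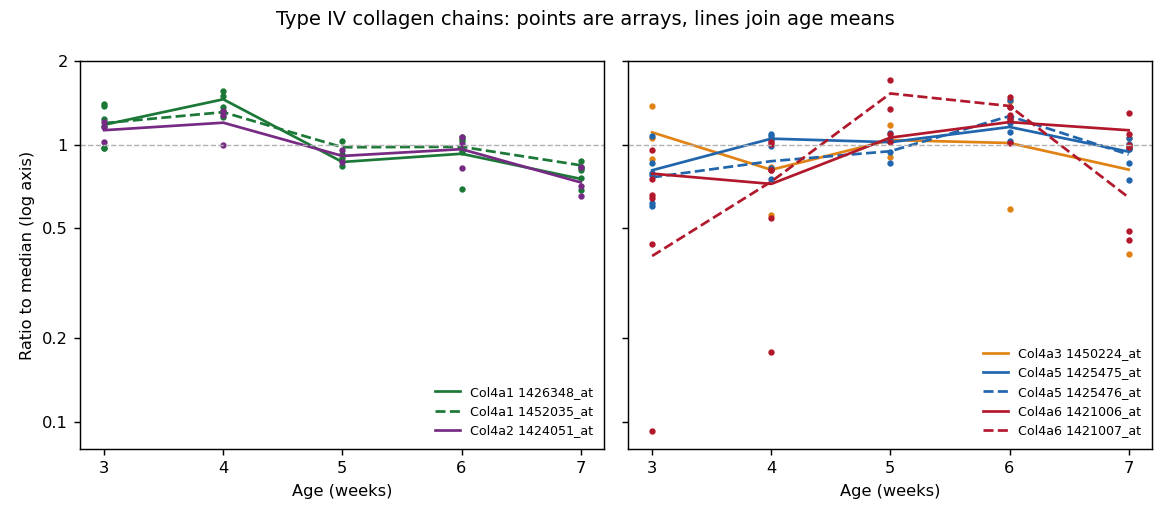
Ratios of the type IV collagen probe sets on each array by age (points, with lines joining the means of the ages, log axis), with Col4a1 and Col4a2 on the left and Col4a3, Col4a5 and Col4a6 on the right. Col4a1 and Col4a2 have means of 0.752, 0.842 and 0.731 at 7 weeks, while the Col4a5 probe sets have their highest means, 1.16 and 1.27, at 6 weeks.

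Several chains of known stromal or basement membrane collagens passed in no comparison. Col1a1, the first chain of type I collagen, had ratios of 0.824, 1.35 and 1.07 at 3 weeks, 1.19, 1.15 and 1.32 at 4 weeks, 1.05 and 0.953 at 5 weeks, 0.871, 0.847 and 1.11 at 6 weeks and 0.736, 0.813 and 0.779 at 7 weeks on 1423669_at. The 3 arrays at 7 weeks were the lowest of the 14 here too, with a 7 week change that did not pass (log2 change -0.45 ± 0.18 SE, adjusted p = 0.148). On 1455494_at its ratios were 0.964, 1.25 and 1.29 at 3 weeks, 1.47, 1.0 and 1.72 at 4 weeks, 1.11 and 0.639 at 5 weeks, 0.761, 0.643 and 1.14 at 6 weeks and 0.859, 0.749 and 0.995 at 7 weeks, and the arrays of the ages overlapped (log2 change -0.42 ± 0.28 SE, adjusted p = 0.416). Col5a1, the principal chain of type V, had ratios of 0.857, 1.25 and 1.33 at 3 weeks, 1.08, 1.08 and 1.25 at 4 weeks, 0.972 and 1.25 at 5 weeks, 0.834, 0.907 and 1.03 at 6 weeks and 0.658, 0.878 and 0.784 at 7 weeks on 1416740_at, with a 7 week change that did not pass (log2 change -0.55 ± 0.19 SE, adjusted p = 0.101).

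Its other probe sets, 1416741_at and 1434479_at, had ratios of 0.769, 1.11 and 1.42 at 3 weeks, 1.44, 1.13 and 1.2 at 4 weeks, 0.979 and 0.81 at 5 weeks, 0.92, 0.486 and 1.06 at 6 weeks and 0.63, 1.02 and 0.61 at 7 weeks and of 0.792, 1.17 and 1.15 at 3 weeks, 1.11, 1.03 and 1.15 at 4 weeks, 0.921 and 1.09 at 5 weeks, 0.968, 0.742 and 1.08 at 6 weeks and 0.683, 0.916 and 0.739 at 7 weeks. They gave log2 changes of -0.54 and -0.40 at 7 weeks (adjusted p = 0.353 and 0.248). All 3 probe sets of Col5a1 thus had lower 7 week means without passing.

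Col14a1, a FACIT collagen that binds decorin on type I fibrils, had ratios of 0.594, 1.06 and 0.977 at 3 weeks, 0.961, 1.08 and 1.02 at 4 weeks, 0.786 and 1.05 at 5 weeks, 0.968, 1.13 and 1.07 at 6 weeks and 0.856, 0.948 and 1.06 at 7 weeks on 1427168_a_at and 0.778, 0.798 and 1.14 at 3 weeks, 0.782, 0.747 and 1.12 at 4 weeks, 0.788 and 1.03 at 5 weeks, 0.866, 1.05 and 1.29 at 6 weeks and 1.04, 0.974 and 1.13 at 7 weeks on 1428455_at. Its ages overlapped throughout, and its changes against 3 weeks lay between -0.04 and 0.31 on the log2 scale, with adjusted p from 0.348 to 0.988. Col15a1, the other multiplexin, had ratios of 0.882, 1.47 and 1.38 at 3 weeks, 1.35, 1.1 and 1.54 at 4 weeks, 1.04 and 0.743 at 5 weeks, 1.01, 0.495 and 0.785 at 6 weeks and 0.758, 0.991 and 0.701 at 7 weeks. It leaned downwards at 6 weeks (log2 change -0.73 ± 0.29 SE, adjusted p = 0.115) and 7 weeks (log2 change -0.59 ± 0.29 SE, adjusted p = 0.249) but neither change passed.

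The remaining tested probe sets passed in no comparison. Those of Col5a2 (2 probe sets), which lies next to Col3a1 in the genome, had 7 week log2 changes of 0.04 and -0.19. Those of Col2a1, Col11a2, Col12a1, Col19a1 and Col25a1, with 1 tested probe set each, ran from -0.78 (Col2a1) to 0.53 (Col19a1), those of the 3 Col20a1 probe sets from -0.81 to 0.04, and that of Col26a1 was 0.73. Standard errors among these reached 0.91, for Col20a1, and were smallest, at 0.14, for Col5a2.

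The level limit left out 10 probe sets. They were those of Col10a1, Col4a4, Col9a2 and Col22a1 (2), which have no other, and 1 or 2 probe sets each of Col5a3, Col8a1, Col9a3 and Col19a1. Their recovered levels ran from 2 to 296 steps of the scanner scale, under the limit of 200 on all arrays or all but 1, and no change is given for them. Among the tested members, those of Col11a1 (1449154_at), Col4a6 (1421007_at), Col19a1, Col20a1 (1425236_at) and Col26a1 also had recovered levels, with highest values from 239 to 341 steps, so they passed the limit narrowly. Of these, 4 had no 3 week array at the limit, Col20a1 being the exception. No level could be recovered for the called members. The search covered counts of up to 400 steps and kept only matches unlikely to arise by accident, so their levels are not known.

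Genes that process collagen were called about as often as all genes. Of 32 listed processing genes 23 were tested, and 2 rose and 1 fell at 6 weeks (13% called, against 14.1% of all genes), and 1 rose and 2 fell at 7 weeks against 3 weeks (13%, against 10.1%). Their median log2 change was 0.10 at 6 weeks and 0.00 at 7 weeks. Pcolce, an enhancer of the enzyme that trims fibrillar procollagen, averaged 0.733 ± 0.0978 at 7 weeks, against 1.53 ± 0.44 at 3 weeks (SD, n = 3 each), and fell (log2 change -1.03 ± 0.22 SE, adjusted p = 0.0126). Its relative Pcolce2 averaged 1.97 ± 0.364 at 7 weeks, against 0.81 ± 0.129 at 3 weeks, and rose (log2 change 1.27 ± 0.21 SE, adjusted p = 0.00319). Sparc, which binds collagens and aids their assembly, fell at 7 weeks (log2 change -0.49 ± 0.11 SE, adjusted p = 0.019). Plod2, a lysyl hydroxylase that sets collagen cross-links, rose at 6 weeks (log2 change 0.71 ± 0.15 SE, adjusted p = 0.0107) and was lower at 7 weeks than at 6 weeks (log2 change -0.97 ± 0.15 SE, adjusted p = 0.0408), a comparison in which 0.0655% of all genes fell.

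Of 11 small leucine-rich proteoglycans, which coat collagen fibrils, 10 were tested, and 2 passed at 6 weeks (20%, against 14.1% of all genes) and 1 at 7 weeks (10%, against 10.1%). Kera, known from the cornea, averaged 1.14 ± 0.2 at 6 weeks, against 0.106 ± 0.0307 at 3 weeks (SD, n = 3 each) (log2 change 3.45 ± 0.78 SE, adjusted p = 0.0148), but it was below the level limit on all 3 week arrays and was tested only through later ones, so this difference is a description only. Aspn, which binds type I collagen, fell at 6 weeks (log2 change -0.58 ± 0.13 SE, adjusted p = 0.0147) and at 7 weeks (log2 change -0.70 ± 0.13 SE, adjusted p = 0.00742). Of 10 listed collagen receptors 6 were tested, and Mrc2, which takes up collagen fragments, rose at 6 weeks (log2 change 1.21 ± 0.31 SE, adjusted p = 0.0266), which is 16.7% of the 6, against 14.1% of all genes called.

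Of 10 hemidesmosome genes 9 were tested beside Col17a1. At 6 weeks 5 were called higher, Dst among them (55.6%, against 9.8% of all genes called higher). At 7 weeks 3 were, again with Dst (33.3%, against 7.1%). Their median log2 change was 1.0 at 6 weeks and 0.57 at 7 weeks, against 0.07 and 0.09 over all genes. Dst (log2 change 1.76 ± 0.29 SE, adjusted p = 0.0028), whose epithelial form links keratin to the hemidesmosome, has 1 of 4 probe sets below the level limit on all 3 week arrays. That probe set was tested only through later arrays, so no rise is read from the mean of Dst or from the counts that include it. The other genes called at 6 weeks were laminin chains of the hemidesmosome and basal keratins. The laminin chains were Lama3 (log2 change 1.0 ± 0.15 SE, adjusted p = 0.00163) and Lamb3 (log2 change 0.84 ± 0.23 SE, adjusted p = 0.0306). The keratins were Krt5 (log2 change 1.16 ± 0.29 SE, adjusted p = 0.0213) and Krt14 (log2 change 1.65 ± 0.21 SE, adjusted p = 0.000744). At 7 weeks Dst, Lamb3 and Krt14 passed, with log2 changes of 1.30, 0.91 and 1.43. Krt5 and Krt14 are also on the basal marker list.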

How the data were processed

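The deposited values are linear ratios. Per tests on the table, the authors set probe sets relative to their median of the 14 arrays: 98.48% of the 22690 medians were 1 within 0.001, those of all 58 collagen probe sets among them, while 337 were below 0.98. What software made the signals is not stated in the labels or the table. In 6246 probe sets (27.5%) the ratios matched whole multiples of an array's own step, in a search of up to 400 steps. The levels so recovered served to leave out 4113 probe sets below 200 steps on all arrays or all but 1. The 64 control probe sets were left out too. Gene names came from the platform annotation, and 20380 probe sets name 1 gene.

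Log2 ratios were used without an offset or further normalization (array medians ran from 0.953 to 1.017). The model had age as a factor (limma 3.58.1, run in R 4.3.3, 14 arrays), with an F test and 7 contrasts, all two-sided, and Benjamini-Hochberg adjustment over the 18513 tested probe sets at a threshold of 0.05. Genes were also fitted as the mean of their probe sets over 10689 genes. In simulated data for 7wk against 3wk, with 18513 probe sets, log2 changes of 0.5, 1, 2 and 3 were called in 2, 22, 45 and 44 of 50 probe sets each. Precision is limited by the number of arrays. Tables were made with pandas 2.3.3 and numpy 2.4.6 under Python 3.11.15, and plots with matplotlib 3.10.9.

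Every collagen gene is named once, and values on every array are given for each called collagen probe set and for Col1a1, Col1a2, Col3a1, Col4a1, Col4a2, Col5a1, Col6a1, Col7a1, Col14a1, Col15a1, Col17a1 and Col18a1. Genes of the processing, proteoglycan, receptor and hemidesmosome lists were named when called at 6 or 7 weeks against 3 weeks, up to 6 a list, and cell type markers were given as counts. The members and lists were chosen with earlier results of these data known. No 2 arrays held identical values. Alternatives tried were no level filter, an offset of 0.1, quantile normalization, genes in place of probe sets, spike or actin controls as covariates, the array letter as a block, robust moderation, leaving out 6wk A and B, and leaving out each array in turn.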

Additional observations from a re-analysis of the deposited data

How the results depend on the processing

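Of 23 called collagen results, refitted under 23 alternatives each, 385 of 529 fits kept the call, 144 lost it and 0 reversed its direction. The collagen counts were 8 in the F test, 4 at 5wk, 9 at 6wk and 10 at 7wk against 3wk. With the spike covariate the F test called 2 and 7wk against 3wk 1. With the actin covariate the F test called 3, 5wk against 3wk 2 and 6wk against 3wk 1. Without 6wk A and B, 6wk against 3wk called 3 and 7wk against 6wk 1, and quantile normalization called 1 in 7wk against 6wk, where the count was 0. With the array letter as a replicate block the F test called 5 and the other counts stayed within 1 of their value, though members changed: Col6a1 and Col17a1 were lost and Col13a1 gained at 6wk, and Col3a1 and Col4a1 were lost and Col5a1 gained at 7wk against 3wk. The labels do not say whether a letter marks a shared batch. With the age means taken out, arrays of the same letter at different ages correlated by 0.0152 on average (26 pairs, -0.0674 to 0.0833). Arrays of different letters and ages correlated by -0.00761 on average (52 pairs, -0.122 to 0.0878). Leaving out 1 array at a time gave 3 to 9 in the F test, 0 to 5 at 5wk, 4 to 10 at 6wk and 3 to 11 at 7wk against 3wk, and 0 in the other comparisons. The cause of these changes was not tested, apart from the smaller number of arrays that some fits had.

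Over all probe sets the F test called 1906, and 1152 genes, 1033 with the spike covariate, 862 with the actin covariate and 1010 without 6wk A and B. At 6wk against 3wk 2523 were called, and 1504 genes, 580 with actin and 737 without 6wk A and B. At 7wk against 3wk 1579 were called and 352 with spikes. At 4wk against 3wk the count was 28, and 9 without the filter, 17 with the offset, 8 with quantile normalization, 8 with spikes, 16 with actin and 9 with the block. At 5wk against 4wk it was 139, and 73 without the filter, 262 with quantile normalization, 43 genes, 16 with spikes, 17 with actin and 35 with the block. At 6wk against 5wk it was 52, and 33 with quantile normalization, 0 genes by limma (985 of all genes at an unadjusted p under 0.05), 33 with spikes, 9 with actin, 11 without 6wk A and B and 2 with the block. At 7wk against 6wk it was 177, and 95 without the filter, 38 genes, 18 with spikes, 2 with actin and 33 without 6wk A and B. Leaving out 1 array gave 197 to 625 at 5wk against 3wk, where the count was 671, and 923 to 1529 at 7wk.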
